A study of Homo sapiens with 9 samples.

Results

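At the terminus of the long arm of human chromosome 19 lies a dense run of zinc finger genes. All protein-coding genes with a symbol that begins with ZNF and a start past base 55000000 of chromosome 19 (GRCh38) were followed here, 60 of the 20037 protein-coding genes of the assembly. They are defined by name and position, with no measured value in the rule, and the first starts and the last ends 3.01 Mb apart, at chr19:55476617-58489533. One of them, ZNF470-DT, carries a divergent-transcript symbol and was counted because the RefSeq gene table lists it as protein-coding. H3K9me3, a histone mark of silent chromatin, was measured by Cut&Run, in which a nuclease tethered to an antibody releases the marked DNA for sequencing. The cells were hTERT RPE-1, a telomerase-immortalised human line from retinal pigment epithelium.

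LmnB1 libraries came from cells labelled as overexpressing lamin B1, with 2 biological replicates of LmnB1_16 and 2 of LmnB1_6. The mCherry libraries came from cells labelled as overexpressing the fluorescent protein mCherry, with 2 biological replicates of mCherry_3 and 2 of mCherry_4. The cells of all 8 libraries received doxycycline at 0.05 µg/mL for 24 h, so the mCherry cells also received the drug and overexpressed a protein. LmnB1_16, LmnB1_6, mCherry_3 and mCherry_4 are called clones here for short, although the labels give only these names. Each construct is thus represented by 2 derived lines, and a difference between constructs cannot be told apart from a difference between lines except through the spread of those lines.

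Most zinc finger genes of this kind encode DNA-binding repressors, many with a KRAB domain that recruits TRIM28, which in turn brings in SETDB1, an enzyme that deposits H3K9me3. The genes themselves are known to carry H3K9me3 in many human cell types, mainly towards the 3′ end, where the exon for the zinc finger array lies. ZNF274 is known to bind at those 3′ ends and to recruit SETDB1 there. Lamin B1 is part of the filament network under the nuclear membrane, to which H3K9me3-marked chromatin is tethered. The study's title names lamin B1 overexpression and chromatin organization, and the comparison of LmnB1 with mCherry addresses whether the extra lamin moves this mark.

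For each gene, the measure was the percent of the gene body, from start to end, that lies inside the enriched domains listed for a library (the covered percent). A gene at 0% in a library overlaps no listed domain there. That does not show that it carries none of the mark, since only domains past the authors' threshold are in the lists. The libraries are from bulk cells, in which fewer marked cells and less mark per cell cannot be told apart.

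The 300-base windows around 4 gene starts show the kinds of gene described below, and each is printed with every CG pair, the target of DNA methylation, in capitals. Windows run from 250 bases before to 50 bases after the start, 5′ to 3′ on the gene's own strand, and come from RefSeq on GRCh38.p14. All 4 genes lie on the + strand. ZNF135, at chr19:58058989-58059288, was covered over its whole body in all 8 libraries.
ZNF135: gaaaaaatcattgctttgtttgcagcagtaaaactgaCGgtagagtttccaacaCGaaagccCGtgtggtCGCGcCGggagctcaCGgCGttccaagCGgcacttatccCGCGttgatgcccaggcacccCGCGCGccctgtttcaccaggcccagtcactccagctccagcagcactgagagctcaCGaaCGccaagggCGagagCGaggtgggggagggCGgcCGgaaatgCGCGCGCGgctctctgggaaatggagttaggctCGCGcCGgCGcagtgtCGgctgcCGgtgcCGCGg
ZNF274, at chr19:58182811-58183110, was covered over nearly all of its body and serves as the reference for likeness between genes.
ZNF274: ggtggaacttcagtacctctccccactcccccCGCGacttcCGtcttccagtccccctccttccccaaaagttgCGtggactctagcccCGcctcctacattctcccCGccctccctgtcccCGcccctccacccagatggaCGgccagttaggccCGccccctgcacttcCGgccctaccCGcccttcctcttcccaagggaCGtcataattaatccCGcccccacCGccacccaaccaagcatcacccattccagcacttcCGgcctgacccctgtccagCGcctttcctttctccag
ZNF549, at chr19:57527106-57527405, was uncovered at its start and covered at its end.
ZNF549: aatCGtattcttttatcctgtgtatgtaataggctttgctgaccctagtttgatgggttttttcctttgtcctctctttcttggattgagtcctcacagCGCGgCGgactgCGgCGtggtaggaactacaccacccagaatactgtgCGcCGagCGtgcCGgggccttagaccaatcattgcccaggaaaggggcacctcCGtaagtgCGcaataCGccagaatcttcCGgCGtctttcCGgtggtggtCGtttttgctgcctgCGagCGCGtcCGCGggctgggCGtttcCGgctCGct
ZNF264, at chr19:57191250-57191549, had no listed domain in any library.
ZNF264: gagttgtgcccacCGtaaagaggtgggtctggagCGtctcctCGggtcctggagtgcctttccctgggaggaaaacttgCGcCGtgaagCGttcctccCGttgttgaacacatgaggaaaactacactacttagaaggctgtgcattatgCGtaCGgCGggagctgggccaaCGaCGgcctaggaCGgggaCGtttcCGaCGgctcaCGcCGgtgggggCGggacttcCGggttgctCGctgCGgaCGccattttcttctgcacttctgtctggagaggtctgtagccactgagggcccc
The windows hold 32 CG pairs in ZNF135, 16 in ZNF274, 25 in ZNF549 and 23 in ZNF264. The search was for the letters CG, which read the same on both strands, and 98.1% of 15842 protein-coding start windows hold at least 1, with a median of 22 per window.

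Along the cluster, H3K9me3 domains alternated with long stretches that had none in any library. Of the 3.01 Mb, 672 kb was covered in all 8 libraries, which is 22.3% of the cluster, and 976 kb, or 32.4%, was covered in none. Of the sequence covered in at least 1 library, 33.0% was covered in all 8 within the cluster, against 20.3% in the whole genome. The longest gap within the cluster, chr19:55476001-55824000, spanned 348 kb and holds ZNF628, ZNF579, ZNF524, ZNF865, ZNF784, ZNF581 and ZNF580. It begins at the edge of the cluster as defined here, so the stretch without domains may reach further towards the centromere. A gap of 196 kb, chr19:57169001-57365000, holds ZNF264, ZNF805, ZNF460, ZNF543 and ZNF304 and reaches just past the start of ZNF547. Gaps of 118 kb at chr19:56065001-56183000 and 108 kb at chr19:58304001-58412000 hold ZNF787 and ZNF444, and ZNF497 and ZNF837. The longest stretches marked in every library that touch these genes were 63 kb at chr19:58081001-58144000, over part of ZNF329, and 40 kb at chr19:58187001-58227000, over most of ZNF274. A 62 kb stretch at chr19:56760001-56822000 was also marked in every library and overlaps none of the 60 genes.

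**Figure D1:**
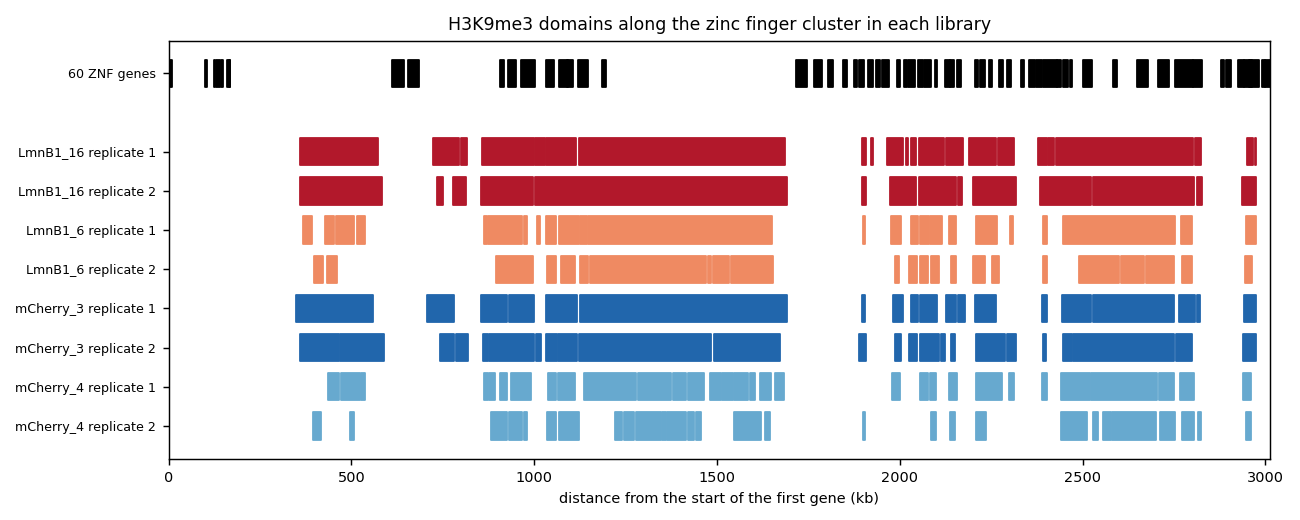
H3K9me3 domains listed for each library along the cluster, drawn as bars against the distance from the start of the first gene (kb), with the 60 ZNF genes in black on the top row and LmnB1 libraries above mCherry libraries. The gaps shared by all 8 libraries line up, and the mCherry_4 libraries have the most domains, 31 in replicate 1 and 28 in replicate 2, with the shortest median length in replicate 2 (20 kb).

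By gene, the covered percent ran from none to complete. In all 8 libraries, 21 of the 60 genes were at 0%, which is 35.0%, against 8.95% of the 190 ZNF genes elsewhere on chromosome 19, 49.6% of the 268 ZNF genes on other chromosomes and 79.3% of all protein-coding genes. In all 8 libraries, 13 genes were at least 50% covered, 4 at least 90% and 3 completely. The 13 make up 21.7%, against 34.7% of ZNF genes elsewhere on chromosome 19 and 12.3% of those on other chromosomes. Over all protein-coding genes this share was 1.82%. Complete coverage was at 5.0%, against 4.74%, 1.49% and 0.614% in the same 3 lists. The genes before base 57000000 held 9 of the unmarked genes among 17, and those after it held 12 among 43. The 75 other protein-coding genes past base 55000000 averaged 19.3%, against 42.6% for the 60 ZNF genes, over the 8 libraries. Among them, 14 zinc finger genes with other names, of the ZSCAN, ZIM and related families, averaged 46.8%. The ZNF genes elsewhere on chromosome 19 averaged 60.9%, those on other chromosomes 24.5% and all protein-coding genes 5.30%. Nothing beyond these shares was tested here, since the genes of a cluster share domains.

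ZNF582 (gene 147948), ZNF470 (gene 388566) and ZNF135 (gene 7694) stood at 100% in each of the 4 LmnB1 and each of the 4 mCherry libraries. ZNF582 and ZNF154 are known as genes whose promoter DNA is methylated in several tumour types. ZNF154 was at 100% in 7 libraries and at 98.4% in LmnB1_6 replicate 2. ZNF329 was likewise at 100% in 7 libraries, with 82.7% in LmnB1_6 replicate 2. A stretch of 39 kb, chr19:56550001-56589000, was covered in every library and lies over most of ZNF470-DT and all of ZNF470. These 2 genes also overlap by 554 bases, so that their values are not separate measurements. ZNF324B contains all 7340 bases of ZNF132, and ZNF581 contains ZNF580, with the same consequence.

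ZNF274 (gene 10782), at chr19:58183061-58213562, was at 100% in all 4 LmnB1 libraries and both mCherry_3 libraries, against 93.6% and 87.1% in mCherry_4. The 6 kb at chr19:58179001-58185000 that reaches over its start was covered in the other 6 libraries and in neither mCherry_4 library. By Pearson's r of covered percent over the 8 libraries, the genes most like ZNF274 were ZNF132 (r = 0.965), ZNF71 (r = 0.923) and ZNF606 (r = 0.906). Each of these genes, like ZNF274, had its lowest value in mCherry_4 replicate 2, and the r values are given as a description. In ZNF606, mCherry_4 replicate 1 (84.8%) lay above mCherry_3 replicate 1 (83.5%). ZNF132 stood at 70.7% and 43.4% in mCherry_4, against 84.3% or more elsewhere.

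At the other end of the range were genes covered in a few libraries. ZNF584 had the lowest mean of the tested genes at 10.7%, with 37.7% in LmnB1_16 replicate 2, 0% in the other 3 LmnB1 libraries, and 7.9%, 13.9%, 25.8% and 0% in the mCherry libraries. ZNF587 (mean 13.4%) and ZNF419 (mean 17.1%) followed. ZNF548 and ZNF749 were covered only in LmnB1_16 replicate 1, at 30.4% and 27.5%, and fell below the mean of 5% required for testing. The genes with the largest spread over the 8 libraries were ZNF776 (48.9% ± 48.4, SD, n = 8), ZNF586 (48.8% ± 46.4) and ZNF671 (75.0% ± 46.3, tied with ZNF417). ZNF671 was all or none: 100% in 3 LmnB1 and 3 mCherry libraries, and 0% in LmnB1_6 replicate 2 and mCherry_4 replicate 2. ZNF776 and its neighbour ZNF586 moved together, both at 100% in the 2 LmnB1_16 libraries and at 33.0% or less in LmnB1_6.

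**Figure D2:**
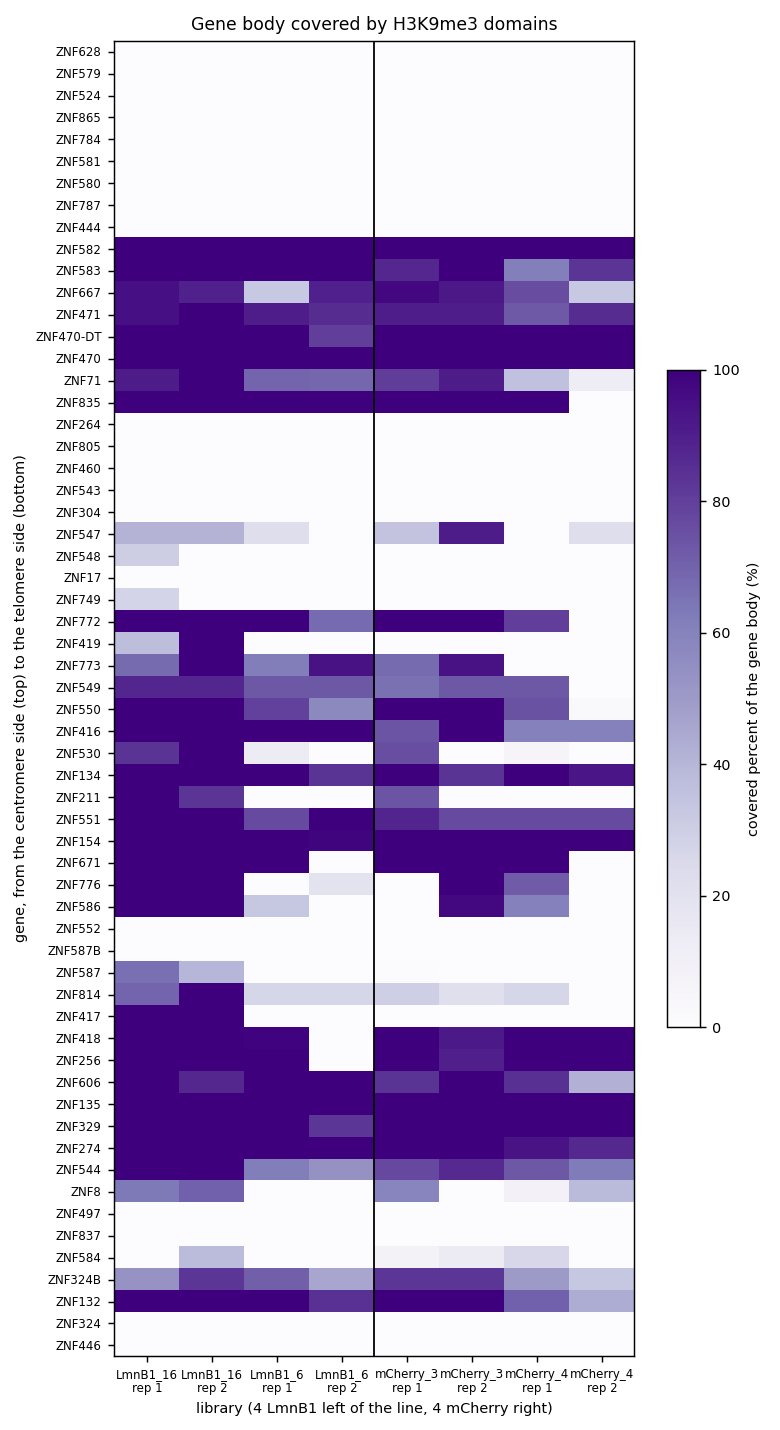
Covered percent of the gene body (colour, 0 to 100%) for the 60 ZNF genes in genomic order, with 4 LmnB1 libraries left of the line and 4 mCherry libraries right of it. Blocks of genes at 0% in every library alternate with blocks that are largely covered, and many genes between show values that split by line or by a single library.

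On average over the genes, coverage was higher towards the 3′ end. The strand could be read for 55 of the 60 genes from the RefSeq start windows, and averaged over these and the 8 libraries the first decile of the gene was 33.4% covered, the eighth decile 49.3% and the last decile 48.1%. The 2 kb before the start were at 34.1%. In the 34 genes that were tested and have a strand, the first decile averaged 61.1% ± 18.0 with LmnB1 and 47.0% ± 11.8 with mCherry (SD, n = 4 each), and the last decile averaged 81.3% ± 17.0 with LmnB1 and 73.6% ± 14.0 with mCherry. In every one of the 8 libraries the mean of the last decile exceeded that of the first. With each gene averaged over the 8 libraries, the last decile was the more covered in 23 of the 34 genes, or 67.6%, and the first in 5, or 14.7%. Over all 1826 tested genes with a strand, these shares were 39.1% and 28.1%. Within a single library most of the 55 genes were equal at both ends, 38 to 48 of them. The last decile was the higher in 6 to 14 genes per library and the first in 0 to 3. Exon positions were not used here, so the covered stretch was not compared with the zinc finger exons.

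ZNF549 and ZNF667 had the steepest rise. ZNF549 (gene 256051, + strand) averaged 0% in its first decile and 87.5% in its last, and the 2 kb at chr19:57527001-57529000 across its start were uncovered in every library. ZNF667 (gene 63934, − strand) averaged 17.3% in its first decile and 99.3% in its last, with an uncovered 2 kb at chr19:56477001-56479000 across its start. ZNF547, ZNF814 and ZNF551 rose by 73.8, 71.1 and 62.5 percentage points between the first decile and the last. ZNF324B and ZNF8 went the other way. ZNF324B averaged 54.2% in its first decile and 0% in its last, and ZNF8 had 46.5% and 12.5%.

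**Figure D3:**
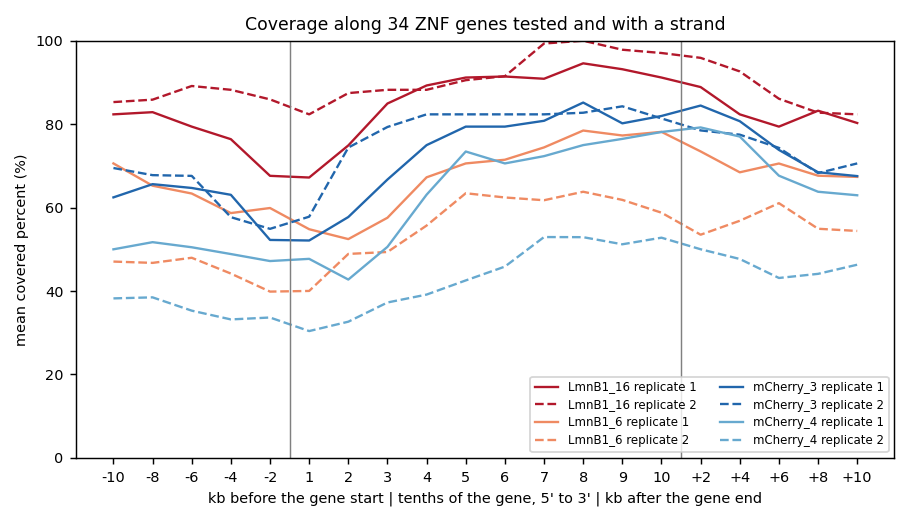
Mean covered percent along the 34 tested ZNF genes with a strand, in 2 kb steps before the start and after the end and in deciles of the gene between (vertical lines mark start and end), 1 line per library (solid, replicate 1; dashed, replicate 2). Every library dips near the start and is higher in the last decile than in the first, with LmnB1_16 at the top and mCherry_4 replicate 2 at the bottom.

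The 300-base start windows were scored in the same way. Of 55 windows, 27 met no domain in any library and 5 met one in all 8 libraries, while over all protein-coding genes 14496 of 15842 windows met none in any library. A window marks the start RefSeq gives for 1 transcript, and in 8 of the 55 genes that start lies more than 1 kb inside the gene body, up to 33.2 kb in ZNF324B and 16.1 kb in ZNF814. Deciles and covered percents are of the whole gene body. Windows touched by a domain numbered 23 and 27 in LmnB1_16 and 19 and 12 in LmnB1_6, against 16 and 17 in mCherry_3 and 15 and 10 in mCherry_4. Of the 25 genes with a mean of 50% or more, 3 had a start window uncovered in every library, namely ZNF667, ZNF549 and ZNF324B, of which the last has its window far inside the gene body. Base composition overlapped between the kinds of gene. The median GC content of the windows was 65.7% for the unmarked genes, 58.0% for those with a mean above 0 and under 50%, and 61.0% for those at 50% or more, with 62.7% over all genes. The windows' CG counts overlapped between all of these groups, with medians of 23, 20 and 24.

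No ZNF gene of the cluster passed the test for a change in covered percent with LmnB1. The mean over the 60 genes was 55.1% and 57.0% in LmnB1_16 and 40.2% and 33.5% in LmnB1_6, against 44.6% and 46.2% in mCherry_3 and 38.0% and 26.2% in mCherry_4. The groups overlapped, at 46.4% ± 11.4 with LmnB1 and 38.8% ± 9.08 with mCherry (SD, n = 4 each), and their difference, 7.67 percentage points, lies within the spread. Of the cluster's length, the LmnB1_16 domains covered 1.87 and 1.89 Mb and the LmnB1_6 domains 1.42 and 1.18 Mb, against 1.68 and 1.69 Mb for mCherry_3 and 1.28 and 0.867 Mb for mCherry_4. These lengths averaged 1.59 ± 0.353 Mb with LmnB1 and 1.38 ± 0.392 Mb with mCherry, 0.21 Mb apart. A single library carried much of this: without mCherry_4 replicate 2 the difference over the genes was 3.49 percentage points and that in length 0.0383 Mb. Without LmnB1_16 replicate 1 or 2 it was 4.78 or 4.16 percentage points, and without LmnB1_6 replicate 2 it was 12.0.

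Depth moved with the construct. From the log2 ratios and read counts of the domains, sequencing depth relative to the shared input came to 0.880 to 1.01 in the LmnB1 libraries and 0.421 to 0.859 in the mCherry libraries, without overlap, and its part in any higher value with LmnB1 cannot be told apart from the construct's. Domains over the whole genome covered 357 to 646 Mb in the LmnB1 libraries and 320 to 529 Mb in the mCherry libraries.

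Gene by gene, limma's test with clone as a random block was fitted to the 2304 protein-coding genes whose covered percent averaged 5 or more, of which 37 are in the cluster. It called 0 of the 37 higher and 0 lower at an adjusted p under 0.05 (Benjamini-Hochberg over all genes tested), against backgrounds of 0.217% higher and 0.0868% lower. The smallest adjusted p of a ZNF gene in the cluster was 0.907. Before adjustment, 1 of the 37 was higher at p under 0.05 and 0 lower, against backgrounds of 3.12% and 0.521%. No gene had all 4 LmnB1 values above all 4 mCherry values, where 2.69% of all tested genes did, and none had them all below, where 0.391% did. The mean was higher with LmnB1 in 26 genes, lower in 7 and equal in 4; 70.3% were thus higher, against 60.3% of all tested genes. The median difference was 11.8 percentage points in the cluster and 3.73 over all tested genes. Without mCherry_4 replicate 2, the median in the cluster was 0.779 percentage points, with 20 genes higher and 13 lower. The median over all tested genes was not taken without that library. Once each library's mean over all tested genes was subtracted, the split was 21 higher and 16 lower, with a median of 5.06 percentage points. The 4 genes with equal means could only turn lower there, because the subtracted means averaged higher with LmnB1. No share over all tested genes was taken under this setting.

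ZNF416 (gene 55659) was the gene with the unadjusted p under 0.05. It was at 100% in all 4 LmnB1 libraries, against 74.0% and 100% in mCherry_3 and 60.4% in both mCherry_4 libraries. The difference was 26.3 percentage points (SE 10.5, limma adjusted p = 0.907), and without mCherry_3 replicate 2, the mCherry library at 100%, the adjusted p was 0.0482. With the replicate number added as a block, the unadjusted p was 0.0547. One library thus decides this call.

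The 5 largest positive differences belonged to ZNF417, ZNF773, ZNF814, ZNF419 and ZNF530, and none passed the test. ZNF417 (gene 147687) stood at 100% in both LmnB1_16 libraries and 0% in both LmnB1_6 libraries, against 0% in all 4 mCherry libraries, so that its difference of 50 percentage points (SE 27.3) came from 1 line. ZNF419 likewise was covered in LmnB1_16 alone, at 37.1% and 100%, with 0% in LmnB1_6 and 0% in mCherry. ZNF773 showed the opposite layout: it was at 67.2% and 100% in LmnB1_16 and 61.8% and 94.3% in LmnB1_6, against 67.2% and 94.3% in mCherry_3 and 0% in both mCherry_4 libraries. Here the low line was an mCherry line, and the 14 kb at chr19:57507001-57521000 over this gene was missing in mCherry_4 alone. ZNF530 and ZNF814 differed by 28.9 and 36.3 percentage points with overlapping groups.

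On the negative side stood ZNF418, ZNF256, ZNF547, ZNF470-DT and ZNF329, with differences of −23.2, −22.4, −10.9, −4.93 and −4.33 percentage points. ZNF418 and ZNF256 lie next to each other and were lost together in 1 library. ZNF256 was at 100% in both LmnB1_16 libraries and LmnB1_6 replicate 1 and at 0% in LmnB1_6 replicate 2, against 100%, 89.7%, 100% and 100% in the mCherry libraries. The same library gave ZNF470-DT and ZNF329 their negative differences, at 80.3% and 82.7%, all other libraries being at 100%.

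**Figure D4:**
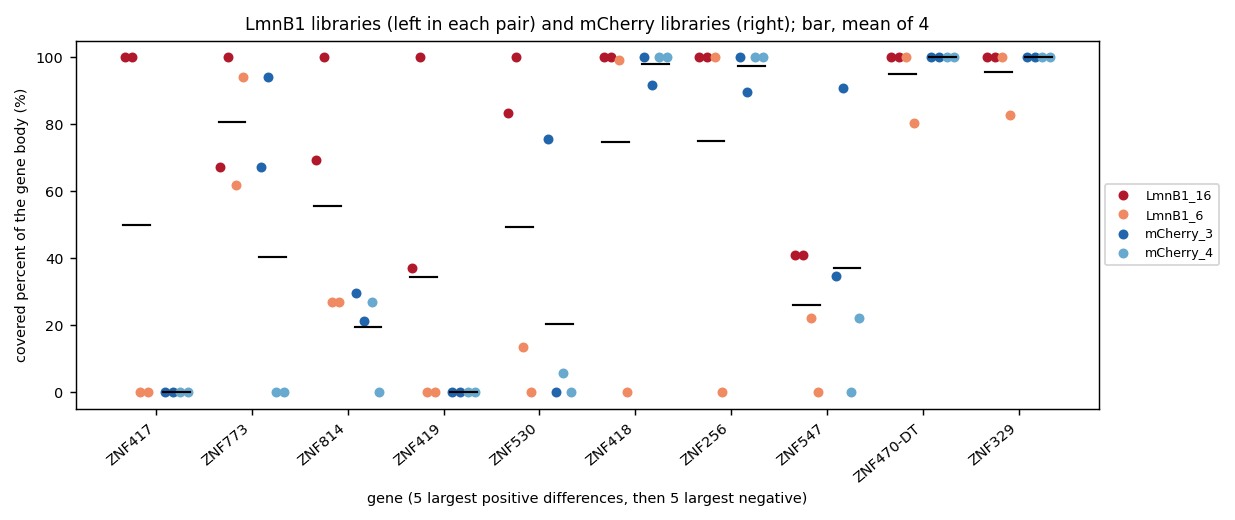
Covered percent of the gene body in each library for the 5 ZNF genes with the largest positive and the 5 with the largest negative difference, LmnB1 left and mCherry right in each pair, points coloured by line, and bars at the mean of 4 libraries. The points of most of these genes split by line or by a single library. Those of ZNF547 are spread over several levels, and ZNF530 is high in LmnB1_16 and in mCherry_3 replicate 1. In none of the 10 genes do all LmnB1 points lie apart from all mCherry points.

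The lines of 1 construct were also compared with each other. This comparison was added after the values were seen. LmnB1_16 exceeded LmnB1_6 in 29 of the 37 tested genes and fell short in 1, so that 78.4% were higher in LmnB1_16, against 64.9% of all tested genes, with median differences of 16.1 and 8.09 percentage points. By limma with the line as a fixed effect, 3 genes were higher in LmnB1_16 than in LmnB1_6, against a background of 4.69%, and 0 were lower, against 3.82%. Read against these backgrounds, the counts among 37 genes do not set the cluster apart. ZNF417 had the largest difference, at 100 percentage points (adjusted p = 4.9e-07), a p that rests on replicates with identical values. ZNF544, at 100% in both LmnB1_16 libraries and 61.8% and 53.6% in LmnB1_6, differed by 42.3 percentage points (SE 5.44, limma adjusted p = 0.0131). ZNF587, at 66.3% and 40.1% in LmnB1_16 and 0% in both LmnB1_6 libraries, differed by 53.2 percentage points (SE 8.72, limma adjusted p = 0.0311). Over 13 alternatives of this contrast, ZNF417 was still called in 13, ZNF544 in 10 and ZNF587 in 6. Where a library of a compared line was left out, the line had 1 library and was assumed to vary like the other lines. ZNF544 was not called without either LmnB1_16 library, ZNF587 was not called without any 1 library of the other 3 lines, and with the library means subtracted neither was called.

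ZNF417 and ZNF587 are recent duplicates known to repress HERV-K retroviral elements, and ZNF587B and ZNF814 are close relatives nearby. Reads may be split between such copies, which makes their values uncertain. The LmnB1_16 segments absent from every other library made up 75 kb of the cluster, 3.68% of what was covered in any library there, against 1.90% in the whole genome. The longest, 15 kb at chr19:57883001-57898000 and 14 kb at chr19:57904001-57918000, lay over ZNF814 and ZNF417. No sequence of the cluster was covered in both LmnB1_6 libraries and no other, whereas 7.60% was in the whole genome. No sequence was covered in all 4 LmnB1 libraries and no mCherry library (0.830% in the whole genome), and none the other way round (0.105%).

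Between the mCherry lines, ZNF71 was higher in mCherry_3, at 80.5% and 90.8%, than in mCherry_4, at 35.9% and 12.7%, a difference of 61.3 percentage points (SE 9.0, limma adjusted p = 0.0300). It was the 1 gene called higher in mCherry_3, against a background of 5.82%, and 0 were called lower, against 0.13%. In 25 of the 37 genes mCherry_3 was the higher, 67.6% against 68.9% of all tested genes. ZNF71 was not called in 7 of 13 alternatives, namely without any 1 of the LmnB1 libraries or of the mCherry_3 libraries and with the library means subtracted. Overlap of the covered sequence in the cluster (shared over joint length) was 0.753 ± 0.145 within a line (SD, n = 4 pairs), 0.640 ± 0.0998 between lines of 1 construct (n = 8) and 0.691 ± 0.126 between constructs (n = 16). The values for lines of 1 construct lay within the range of those between constructs, 0.454 to 0.839.

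For genes covered in every library, the authors' log2 enrichment of the domains over input gave another measure. Averaged by overlapping bases, it was available for the 13 ZNF genes at least 50% covered in all 8 libraries. Limma called 0 of the 13 higher and 0 lower, as it did among all 364 such genes (0.0% each). Before adjustment, 1 of the 13 was higher at p under 0.05 and 0 lower, against backgrounds of 3.3% and 0.0%. That gene, ZNF544, had 1.66 and 1.39 in LmnB1_16 and 1.33 and 0.957 in LmnB1_6, against 0.968 and 1.02 in mCherry_3 and 0.888 and 0.738 in mCherry_4. Its difference was 0.43 on the log2 scale (SE 0.18, unadjusted p = 0.0199, limma adjusted p = 0.718).

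The other 12 genes had positive differences as well, and in all 13 genes the difference lay between 0.13 and 0.43. Many of these values come from the same domain: ZNF135, ZNF329, ZNF274 and ZNF544 all had 1.66 in LmnB1_16 replicate 1. The median difference between constructs was 0.220 over the 13 genes, against 0.1625 over all 364 genes at least 50% covered in all 8 libraries. By library, the median over the 13 genes was 1.58 and 1.21 in LmnB1_16 and 1.24 and 0.934 in LmnB1_6, against 1.01 and 1.02 in mCherry_3 and 1.14 and 0.801 in mCherry_4. Over all 364 genes it was 1.33 and 1.09 in LmnB1_16 and 1.06 and 0.760 in LmnB1_6. The mCherry libraries there stood at 0.965 and 0.945 (mCherry_3) and 0.937 and 0.741 (mCherry_4). LmnB1_6 replicate 2 was the lowest LmnB1 library, below 3 of the 4 mCherry libraries. Without it, limma called 12 of 15 ZNF genes higher with LmnB1 (differences of 0.28 to 0.56), together with 237 of the 477 genes tested in that setting, or 49.7%. These calls thus came with calls in many genes outside the cluster, and they depend on leaving out 1 library. Mean log2 enrichment over the cluster was 1.12 with LmnB1 and 0.916 with mCherry, and depth was also higher with LmnB1. Within constructs, LmnB1_16 replicate 1 had the lowest depth of the LmnB1 libraries (0.880) and the highest log2 enrichment (1.41). LmnB1_6 replicate 2, with the next lowest depth (0.902), had the lowest log2 enrichment of the LmnB1 libraries (0.8285). Among the mCherry libraries, mCherry_4 replicate 1 had the lowest depth (0.421) and the highest log2 enrichment (0.971). The part of depth in these enrichment values was not tested.

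**Figure D5:**
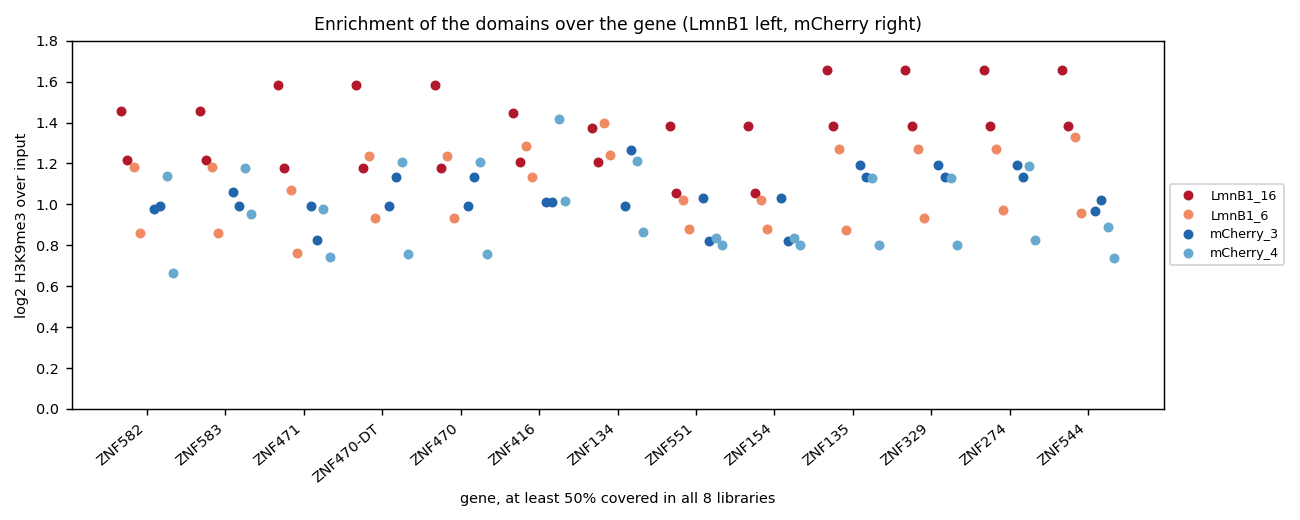
Log2 H3K9me3 over input, as the authors list it for the domains and averaged over each gene, in each library for the 13 ZNF genes at least 50% covered in all 8 libraries, LmnB1 left and mCherry right, points coloured by line. LmnB1_16 lies at or near the top in most genes, and the LmnB1_6 and mCherry points overlap.

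Of 30 genes of the silencing machinery and nuclear lamina, among them TRIM28, SETDB1 and LMNB1, 26 were at 0% in all 8 libraries and 0 reached the mean for testing. Of 11 markers of retinal pigment epithelium, 9 were at 0% in all 8 libraries. These shares, 86.7% and 81.8%, are near the 79.3% of all protein-coding genes. The others were OTX2 and MITF, transcription factors of that tissue, which were covered in LmnB1 libraries alone. OTX2 was at 100% and 29.3% in LmnB1_16, and MITF at 100% and 64.4% in LmnB1_6. Domain lists hold no expression values, so the cell type itself was not checked.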

How the data were processed

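H3K9me3 Cut&Run was measured in 8 hTERT RPE-1 libraries, 4 LmnB1 and 4 mCherry, each with its own list of enriched domains on a 1000-base grid. The input has no list of its own and entered through the authors' ratios. Per the submitters' processing notes, SICER, DiffBind 3.0.15, DESeq2 and deepTools were used on GRCh38; their roles and settings are not given in the sources used here. The deposited lists hold, for each domain, the count of H3K9me3 reads and of input reads, a score, a p-value and an adjusted p-value, and a log2 enrichment over input that the authors scaled to library depth. Reads inside listed domains numbered 2855378 to 10321442 per library; total depth is not in the lists.

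Covered percent and enrichment per gene were computed here with Python 3.11.15, pandas 2.3.3 and numpy 2.4.6. Gene positions came from the RefSeq table for GRCh38.p14. Genes whose covered percent averaged 5 or more entered limma 3.58.1 (R 4.3.3), with clone as a random block through duplicateCorrelation (correlation 0.366 for coverage, 0.347 for enrichment) and Benjamini-Hochberg adjustment over all genes tested, at 0.05. The comparison of clones used clone as a fixed effect. Covered percent is bounded and often 0 or 100, so limma's p-values are approximate; when the scripts were tested on simulated data, more false calls than the threshold allows were made for coverage between constructs. Neighbouring genes share domains and are not independent.

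The ZNF genes, gene lists and tests were chosen with earlier results of these data known. Genes named in the text are those past a test, the 5 largest differences each way, the 5 highest means, the 3 lowest tested means, the 3 largest SDs, ZNF274, ZNF135 and the 3 genes most like ZNF274; the remaining named genes were chosen after their values were seen. A protein table was not used here, so the planned classes by KRAB and SCAN domain were not made. The labels call the replicates biological without saying whether they are separate cultures, so p-values measure the spread between these libraries, which may be technical. By read counts of domains listed with identical coordinates, the mCherry_3 pair did not differ beyond sampling noise (chi-square over 229 domains, p = 0.197). Even so, 6 ZNF genes differed by over 50 percentage points between its 2 lists. The LmnB1_16 pair had a similar chi-square per degree of freedom, 1.10 against 1.08 (chi-square over 648 domains, p = 0.0380). Domains with different coordinates in the 2 lists did not enter this check. The mCherry_3 pair was kept as 2 libraries, with their average as an alternative. Replicate numbers did not pair libraries of different clones: the deviations of same-numbered libraries correlated at −0.0245 to 0.0987.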

Additional observations from a re-analysis of the deposited data

Results flagged for a closer look

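In groups of 4 libraries, 23 of 82 sets of values had 1 library far from the other 3 by Dixon's test; chance flags about 1 in 20 groups of unbounded values. That rate does not apply to covered percents, which are bounded: in 18 of the 23 sets the other 3 libraries were tied, so that any departure is flagged. Of the 23, 22 were covered percents of ZNF genes, and neighbouring genes share domains, so the sets are not independent. LmnB1_6 replicate 2 accounted for 9. Among the LmnB1 libraries it stood lowest for ZNF470-DT (80.3%), ZNF772 (67.8%), ZNF134 (83.2%), ZNF154 (98.4%), ZNF329 (82.7%) and ZNF132 (84.3%), and ZNF671, ZNF418 and ZNF256 were at 0.0% in it. LmnB1_6 replicate 1 stood lowest for ZNF667 (32.7%) and ZNF551 (76.7%). LmnB1_16 replicate 2 stood lowest for ZNF606 (87.3%) and highest for ZNF584 (37.7%).

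Among the mCherry libraries, mCherry_4 replicate 2 was at 0.0% for ZNF835, ZNF549 and ZNF671, and its log2 enrichment over the whole cluster was the lowest, at 0.777. In mCherry_3 replicate 1, ZNF530 (75.7%), ZNF211 (73.9%), ZNF551 (88.2%) and ZNF587 (0.767%) stood above the other 3 libraries. In mCherry_3 replicate 2, ZNF418 (91.7%) and ZNF256 (89.7%) stood below them. For ZNF587 the gap is under 1 percentage point. No technical value was tested against these libraries.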

How the results depend on the processing

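The settings varied were the highest-scoring 50% of each list, equal covered length, domains of at least 10 kb, domains joined over 10 kb, 5 kb flanks, other filters on low coverage, subtraction of the library mean, no clone block, and each library left out. Averaging the mCherry_3 replicates and all alternatives of the comparison of clones were chosen after seeing the data. Between constructs, the count of ZNF genes called higher by coverage ranged from 0 to 1 with 1 library left out (1, ZNF416, without mCherry_3 replicate 2) and was 0 under every other alternative tried; the count called lower was 0 under all of them. The count with all LmnB1 values above all mCherry values ranged from 0 to 3 with 1 library left out, 3 without mCherry_3 replicate 2 and 1 without LmnB1_6 replicate 1, and was 2 with the mCherry_3 replicates averaged. By enrichment, 0 to 12 were called higher with 1 library left out, 12 without LmnB1_6 replicate 2. With the replicate block, fitted for coverage and enrichment between constructs, 0 were called in either direction; the unadjusted p of ZNF416 was 0.0547 there. Same-numbered libraries share only a number. The mean difference over the 60 genes ran from 3.49 to 12.0 percentage points and that in covered length from 0.0383 to 0.347 Mb with 1 library left out.

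For LmnB1_16 over LmnB1_6, 5 genes were called with the highest-scoring 50% of domains, 5 with domains joined and 1 with the library mean subtracted, and 2 to 6 with 1 library left out. For mCherry_3 over mCherry_4, 0 were called with the library mean subtracted and 0 to 7 with 1 library left out. Over all tested genes, LmnB1_16 was called higher in 2.76% with the highest-scoring 50%, 4.86% with domains joined and 2.65% with the library mean subtracted. For mCherry_3 the share was 1.48% with the library mean subtracted. The largest counts with 1 library left out came without LmnB1_6 replicate 1 and without mCherry_4 replicate 1, respectively. That left 1 library in a compared line, and the share over all tested genes was also highest there. The causes were not tested. Genes at 0% or at 100% in every library cannot show a difference in coverage, and the part of depth in the values of the other genes was not tested.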
